A study of Mus musculus with 9 samples.

Results

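Fabp5 and Plin4 are 2 of the 5608 genes in a table of mRNA levels from mouse liver and were taken from it by gene symbol. They were selected on measured values: in earlier results of these data their TPM under both kinds of dietary restriction lay far from that of fed mice. Differences from the fed group are therefore given for these 2 genes as a description, with no test. The comparison of the diets with each other was tested. The choice did not use that comparison itself but did use its IF and FMD values, so the test is not independent of the choice.

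The study compared short-term intermittent fasting with a fasting-mimicking diet in the liver. RNA was sequenced from the livers of 9 wild-type mice, 3 in each group, and every library stands for 1 mouse. FED mice had standard diet ad libitum, IF mice went without food for 24 h, 2 times in a week, and FMD mice received the low-calorie fasting-mimicking diet for 3 days. Livers of IF mice were taken at the end of the second fast and those of FMD mice at the end of the diet days, so neither group had been fed again. Replicates are named by the numbers of the labels (1, 2 and 3 in FED and IF, 1, 2 and 4 in FMD). Values are TPM, the share of a library's transcripts that belongs to a gene, corrected for transcript length, so levels can be set side by side between genes. The depth of the libraries is unknown, because the table gives normalised values for part of the transcripts, 26.3% to 43.0% of each library's TPM total. FMD replicate 1 lay apart from the other libraries with a scaling factor of 1.44, against 0.807 to 1.15 in the other 8, and the differences of Fabp5, Plin4, Fabp4, Plin2 and Plin3 in FMD are also given without it where it changes them. The scaling factor is the median ratio of a library's genes to their geometric mean over all libraries.

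Fatty acid binding proteins are small cytosolic proteins that bind long-chain fatty acids in a barrel-shaped pocket and carry them between membranes, enzymes and nuclear receptors. Fabp5 is the member first described in epidermis and is also made by macrophages, endothelium and adipocytes, whereas Fabp1 is the abundant member of hepatocytes. Perilipins coat the triglyceride core of lipid droplets and set the access of lipases to it: Plin2 is the main coat of hepatocyte droplets, Plin3 moves onto newly formed droplets, and Plin4, best known from adipocytes and muscle, covers nascent droplets with a long amphipathic helix built from repeats. Fasting sends fatty acids from adipose tissue to the liver, where they are stored in droplets or oxidised under the control of PPARα, a nuclear receptor that fatty acids activate.

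The sequences of the 2 genes bear on how well short reads can be assigned to them. In GENCODE on GRCm38, a build other than the mm39 named in the submitters' processing notes, Fabp5 lies on the plus strand at chr3:10012548-10016607 and its paralogue Fabp4 on the minus strand of the same chromosome at chr3:10204088-10208576. The Fabp5 transcript has 987 bases with 405 coding bases, that of Fabp4 has 896 with 396, and 59.8% of 396 aligned coding positions are identical. The best-matching stretch of 90 coding bases is shown for both genes, 5′ to 3′ and counted from the first base of the start codon, with capitals at the positions where they differ. In it 64 of 90 bases match, and the longest run shared anywhere by the 2 transcripts is 12 bases.
Fabp5 coding bases 273 to 362: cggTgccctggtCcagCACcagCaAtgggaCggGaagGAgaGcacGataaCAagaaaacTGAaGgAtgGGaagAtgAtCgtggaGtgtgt
Fabp4 coding bases 267 to 356: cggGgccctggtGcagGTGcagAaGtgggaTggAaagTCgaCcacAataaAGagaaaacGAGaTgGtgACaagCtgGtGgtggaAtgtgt
Fabp5 and Fabp4 reads are thus separable along the whole transcript. Processed pseudogenes are closer: 5 of them (Fabp5l2, Gm13998, Gm14328, Gm6100 and Gm6166) match the Fabp5 transcript over at least 150 bases at 93.6% to 98.3% identity, and none of the 5 is among the listed genes. How reads shared with them were counted is not given in the sources used here, so the absolute level of Fabp5 is uncertain to an unknown extent.

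Plin4 lies on the minus strand at chr17:56100591-56109803, with a transcript of 5755 bases of which 4209 are coding. No other gene matched it over 150 bases at 90% identity, but Plin4 repeats itself: 59.1% of its coding bases, from 473 to 2959, lie in 99-base windows (33 codons) that match the 99 bases beside them at 70% identity or more. Units of this kind encode the helix that lies on the droplet surface. The 3 consecutive units that match best are printed with capitals where the 3 units are not all alike. The first and second match at 97 of 99 bases, the second and the third at 92, and the first and the third at 90.
Plin4 coding bases 1279 to 1377: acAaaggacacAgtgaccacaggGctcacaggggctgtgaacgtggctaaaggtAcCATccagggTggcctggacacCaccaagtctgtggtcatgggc
Plin4 coding bases 1378 to 1476: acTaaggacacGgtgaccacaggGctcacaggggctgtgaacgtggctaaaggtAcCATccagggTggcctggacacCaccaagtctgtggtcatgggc
Plin4 coding bases 1477 to 1575: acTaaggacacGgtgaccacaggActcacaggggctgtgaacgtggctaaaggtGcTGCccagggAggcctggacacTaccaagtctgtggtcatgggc
Reads from such units may align at more than 1 place within Plin4 itself.

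Fabp5 was abundant in fed liver. Its level was 181 TPM in FED replicate 1, 61.0 in replicate 2 and 123 in replicate 3, which placed it between rank 305 and rank 623 of the 5608 listed genes. In IF it was 3.58, 4.45 and 15.9 TPM in replicates 1, 2 and 3, with ranks between 1803 and 3686. In FMD it was 37.65, 12.03 and 6.58 TPM in replicates 1, 2 and 4, with ranks between 1340 and 3090. All 6 libraries of restricted mice were thus below all 3 FED libraries, and the lowest FED value was 3.84 times the highest IF value and 1.62 times the highest FMD value. FMD replicate 1 was the restricted library closest to FED.

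Taken as geometric means, Fabp5 was 17.5-fold lower in IF and 7.70-fold lower in FMD than in FED. On the scale of log2(TPM + 1) the differences from FED were -3.90 (SE 0.63) in IF and -2.84 (SE 0.63) in FMD, with 3 mice a group, and without FMD replicate 1 the second was -3.49. Among the 4665 genes with a mean of at least 1 TPM this was the second largest negative difference in IF and the third largest in FMD. Such a rank reflects how the gene was chosen. Genes lower than FED without overlap of the groups were 6.77% of these in IF and 2.62% in FMD, and genes called lower 1.59% in each. A negative difference was thus the rarer direction on the deposited scale only. After scaling the directions were nearly even, with 3.43% of genes called lower and 3.71% higher in IF, and 5.72% and 5.47% in FMD. The median difference of the 4665 genes was 0.24 in IF and 0.48 in FMD. Dividing each library by its scaling factor therefore widened the distance of Fabp5 from FED to -4.18 and -3.38.

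Plin4 showed the opposite order. Its level was 0.28, 0.51 and 0.64 TPM in FED replicates 1, 2 and 3, at ranks between 4749 and 4983 of the 5608 listed genes. It was 8, 6.29 and 9.72 TPM in IF replicates 1, 2 and 3, and 6, 6.29 and 8.19 TPM in FMD replicates 1, 2 and 4. Every restricted library was above every FED library, and the lowest restricted value, in FMD replicate 1, was 9.38 times the highest FED value. The restricted libraries stood between ranks 2399 and 3547, so that Plin4 went from a level among the lowest of the listed genes to one in their middle.

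Taken as geometric means, Plin4 was 17.5-fold higher in IF and 15-fold higher in FMD than in FED. The pseudocount of 1 compresses this on the fitted scale, where the differences were 2.60 (SE 0.17) in IF and 2.40 (SE 0.17) in FMD, or 2.5 and 2.07 after scaling. With a pseudocount of 0.1 they were 3.84 and 3.63, and without FMD replicate 1 the FMD difference was 2.48. They were the 7th and 27th largest positive differences of the 4665 genes, among which positive differences without overlap of the groups made up 53.8% in IF and 68.0% in FMD. These ranks, too, reflect how the gene was chosen. Since each FED value was below 1 TPM, the fold of Plin4 rests on a low base in fed liver, whereas the 2 restricted groups overlap in level.

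**Figure D1:**
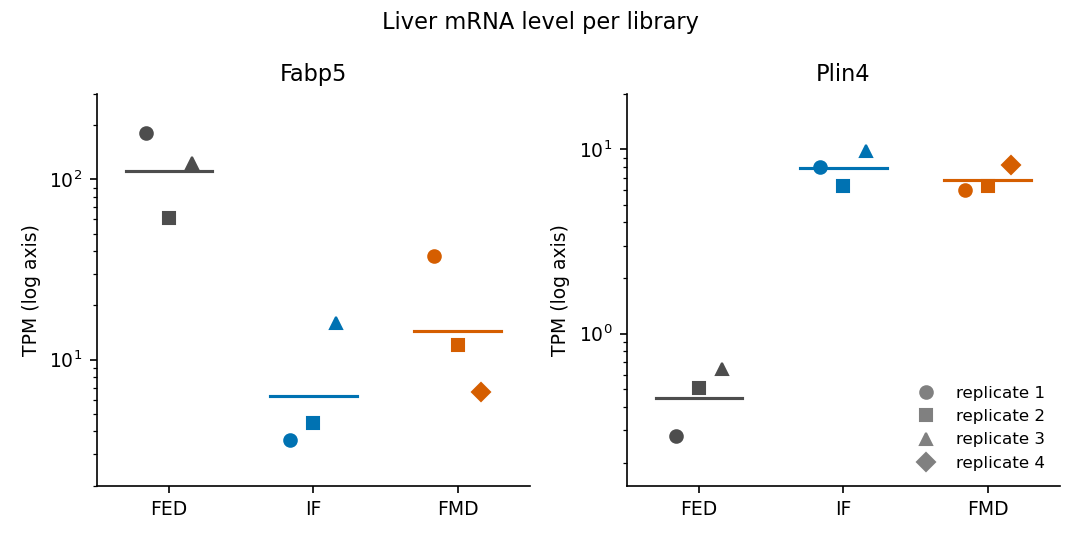
Level of Fabp5 (left) and Plin4 (right) in each liver library, in TPM on log axes, by group. Each point is 1 mouse, its shape the replicate number, and the bar is the geometric mean of 3; all Fabp5 points of IF and FMD lie below the lowest FED point (61.0 TPM), and all Plin4 points of IF and FMD lie above the highest FED point (0.64 TPM).

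The 2 genes also differed in how much mice of 1 group varied. The highest value of Fabp5 was 2.97 times the lowest in FED, 4.44 times in IF and 5.72 times in FMD, and its pooled within-group SD on the log2 scale, 1.02, was the 17th largest of 4665 genes, whose median was 0.18. For Plin4 the same ratios were 2.29, 1.55 and 1.37 and the SD was 0.23. Fabp5 was thus among the most variable genes between mice fed alike, and Plin4 was close to an ordinary gene. Over the 9 libraries Fabp5 and Plin4 ran against each other (Pearson's r of -0.91 on scaled log2 values). This describes 9 points that fall, by the choice of the genes, into a fed and a restricted cluster. The ratio of Fabp5 to Plin4 was 120 to 647 in FED, 0.448 to 1.63 in IF and 0.803 to 6.28 in FMD.

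Whether the diets differed from each other was tested on the same IF and FMD libraries with limma over all 4665 genes, with Benjamini-Hochberg adjustment. Calls needed a difference of more than 1.5-fold in either direction and an adjusted p under 0.05, which 5.14% of the genes met in FMD against IF (4.67% higher, 0.472% lower). Neither Fabp5 nor Plin4 was called. Fabp5 was higher in FMD by 1.06 on the log2 scale (SE 0.63, 95% interval -0.33 to 2.45, adjusted p = 0.234, limma), and the groups overlapped because FMD replicates 2 and 4 were below IF replicate 3. The IF and FMD values did not overlap for 36.7% of all genes. The size of this difference rested on single libraries: it was 0.41 without FMD replicate 1 and 1.65 without IF replicate 3, and was called in neither case. For Plin4 the difference was -0.19 (SE 0.17, 95% interval -0.57 to 0.18, adjusted p = 0.407, limma), with overlapping groups. The interval was wide for Fabp5 and narrow for Plin4, and neither shows that the diets act alike on these genes. Scaling gave 0.79 (adjusted p = 0.46) for Fabp5 and -0.43 (adjusted p = 0.244) for Plin4, where 2.17% of all genes were called.

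Of 15 fatty acid binding and related retinoid binding proteins looked for, 4 were listed and 2, Fabp5 and Fabp4, passed the filter on the mean. Crabp2, a retinoic acid carrier, was listed at 0 in all 9 libraries, and Rbp2, a retinol carrier, at 0 in 8 and at 0.17 TPM in FMD replicate 1. Fabp1 was not analysed here. Fabp4, the adipocyte and macrophage member, was 5.81 to 9.01 TPM in FED, 30.5, 6.05 and 6.72 TPM in IF replicates 1, 2 and 3, and 80.3, 28.1 and 11.5 TPM in FMD replicates 1, 2 and 4. It did not go the way of Fabp5: its difference from FED was 0.50 (SE 0.66, adjusted p = 0.589, limma) in IF and 1.87 (SE 0.66, adjusted p = 0.0281, limma) in FMD. The FMD difference was not called after scaling (1.35, adjusted p = 0.145), after quantile normalization, with no filter or at an adjusted p under 0.01. It was also not called without FMD replicate 1 (1.17), FMD replicate 2 (1.91), FED replicate 1 (1.91) or FED replicate 2 (1.71).

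With Fabp5 low and Fabp4 not, the balance of the pair turned over. The ratio of Fabp5 to Fabp4 was 10.5 to 22.9 in FED, 0.117, 0.736 and 2.36 in IF replicates 1, 2 and 3, and 0.429 to 0.571 in FMD. Fabp5 was the more abundant of the 2 in all FED libraries and in IF replicate 3, and Fabp4 was the more abundant in the other 5. Within FMD both were highest in replicate 1 and lowest in replicate 4, so that their ratio varied less than either gene. In IF they were highest in different mice, Fabp5 in replicate 3 and Fabp4 in replicate 1.

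Of the 5 perilipins 3 were listed and all 3 passed the filter. Plin2 was 234 to 308 TPM in FED, 545 to 654 in IF and 833 to 2212 in FMD, 3 ranges that do not overlap. Of all genes 53.8% lay above FED without overlap in IF and 68.0% in FMD. Between FMD and IF 36.7% did not overlap, in either direction. Plin2 rose by 1.13 (SE 0.29, adjusted p = 0.0181, limma) in IF and by 2.18 (SE 0.29, adjusted p = 3.3e-04, limma) in FMD, where 10.3% and 35.5% of all genes were called higher and 1.59% lower in each. Between FMD and IF it differed by 1.05 (adjusted p = 0.0513, limma), just short of the threshold. These calls turned on single libraries: the rise of Plin2 in IF was not called without FED replicate 1 or without any 1 of the IF libraries (1.01 to 1.21), and its difference between FMD and IF was called without FMD replicate 1 (0.64) or 4 (1.35). Plin3 was 17.5 to 20.4 TPM in FED and 17.9 to 20.4 TPM in IF, a difference of 0.02 (SE 0.25, adjusted p = 0.963, limma). In FMD it was 65.5, 27.8 and 31.5 TPM in replicates 1, 2 and 4 and was called against FED (1.01, adjusted p = 0.0066) and IF (0.99, adjusted p = 0.0435), but in neither comparison after scaling, and not against IF without any 1 of the FED or IF libraries (0.96 to 1.04). Without FMD replicate 1, Plin3 stayed called at 0.64 against FED and 0.62 against IF, and Plin2 was at 1.78 against FED.

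The 3 coats thus had separate orders of level. Plin4 had overlapping levels in IF and FMD, and Plin3 was called in FMD only on the deposited scale. The ranges of Plin2 were stepped from FED over IF to FMD, but its step from IF to FMD was not called. Plin4 remained the scarcest: it was 0.110% to 0.204% of the summed TPM of Plin2, Plin3 and Plin4 in FED, 1.10% to 1.43% in IF and 0.263% to 0.939% in FMD, and there were 67.3 to 86.6 Plin2 transcripts for each Plin4 transcript in IF against 102 to 369 in FMD.

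**Figure D2:**
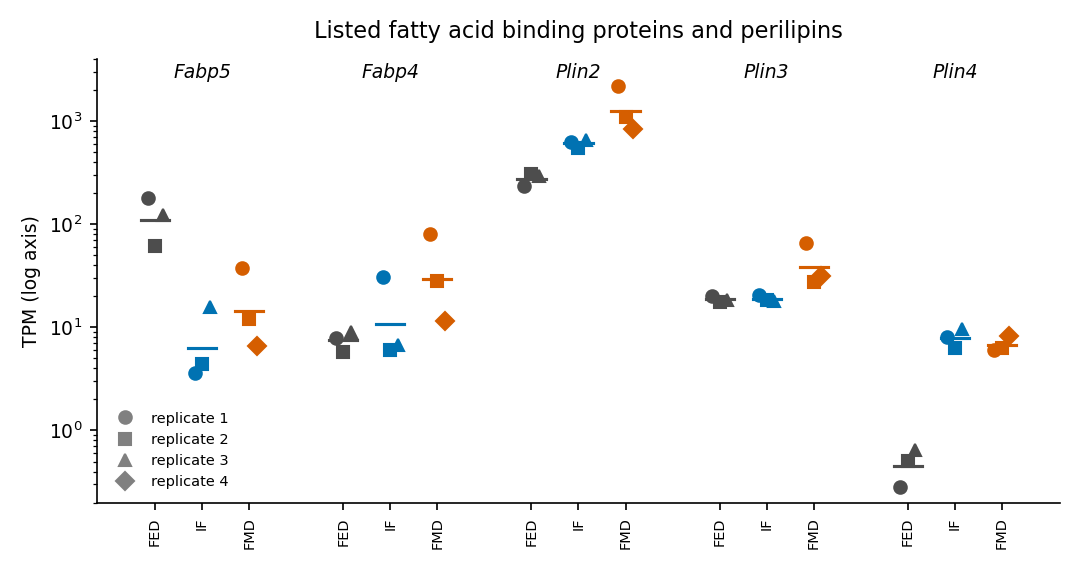
Level in TPM, on a log axis, of the 2 fatty acid binding proteins and 3 perilipins that passed the filter on the mean, in each library by group. Each point is 1 mouse, with its shape as the replicate number, and bars are geometric means of 3. Of the genes drawn, Fabp5 and Plin4 have the widest distance between FED and both restricted groups, for which they were chosen. FMD replicate 1 is the highest FMD point for all but Plin4.

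Other proteins of the droplet surface were described by their counts beside all genes, of which 10.3% were called higher in IF and 35.5% in FMD as deposited, with 1.59% lower in each. After scaling 3.71% of all genes were called higher and 3.43% lower in IF, and 5.47% and 5.72% in FMD. Of 22 such genes looked for 10 were listed and tested. In IF 4 were called higher and none lower, with a median difference from FED of 0.42 against 0.24 over all genes. In FMD 3 of the 10 were called higher, a share near the 35.5% of all genes, and none lower, with a median of 0.49 against 0.48. No droplet gene was lower at an unadjusted p under 0.05 in either comparison (limma). Hsd17b11, a droplet-bound dehydrogenase, rose by 1.4 and 1.79 in IF and FMD, and Fitm2, which is needed for droplets to leave the endoplasmic reticulum, by 1.4 and 1.69. Pcyt1a, the enzyme that makes phospholipid for growing droplets, rose by 0.75 and 0.63, and Mettl7b by 0.61 in IF, with 0.56 in FMD. After scaling 2 genes were called higher in each comparison (Hsd17b11 and Fitm2), and Mettl7a1 was called lower in FMD. None of the 10 was called between FMD and IF by limma, as deposited or scaled, where 5.14% and 2.17% of all genes were called, and 2 of the 10 were higher at an unadjusted p under 0.05.

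Lipases and their partners were counted next, of which some, such as Pnpla2, act on the surface that perilipins cover. Of 16 looked for, 8 were listed and tested. In IF 4 were called higher, beside 10.3% of all genes, and in FMD 5, beside 35.5%. The medians were 0.64 and 0.81, against 0.24 and 0.48 over all genes. None was called lower by limma (1.59% of all genes in each comparison), although 1 was lower at an unadjusted p under 0.05 in each. Pnpla2, the first triglyceride lipase of the droplet, was 30.3 to 33.0 TPM in FED, 67.8 to 87.1 in IF and 97.5 to 205 in FMD, and rose by 1.28 and 2.13. Hilpda, which inhibits Pnpla2, was 1.71 to 2.52 TPM in FED and 3.76 to 4.31 in IF, where its difference of 0.64 was not called. In FMD Hilpda was 39.3, 16.9 and 5.73 TPM in replicates 1, 2 and 4, a rise of 2.41. Lipe, Lipa and Pnpla8 were called higher in both groups by 0.62 to 0.91, and in neither after scaling. Abhd5, the partner that activates Pnpla2, differed by -0.34 in IF and 0.04 in FMD, neither called, and was called lower in IF after scaling (-0.60, adjusted p = 0.0069, limma). With scaled values 1 was called higher and 1 lower in IF, and 2 higher and 1 lower in FMD.

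Fatty acid uptake and activation lie upstream of both members. Of 27 genes looked for 6 were listed and 5 tested, with 3 called higher in IF and 2 in FMD, and none lower by limma, also at an unadjusted p under 0.05. Of all genes 10.3% were called higher in IF and 35.5% in FMD, with 1.59% lower in each, so the FMD count is near the share of all genes. The medians were 0.64 in IF and 0.51 in FMD, against 0.24 and 0.48 over all genes. Slc27a1, a fatty acid transporter, rose by 2.2 and 2.34 in IF and FMD, and Acsl1, which activates fatty acids with coenzyme A, by 1.57 and 0.92. Acbd5, which binds acyl-coenzyme A at peroxisomes, rose by 0.64 in IF. Of 23 genes of triglyceride synthesis and export 3 were listed and tested. Gpat4 and Agpat3 were called higher in both groups, by 0.93 to 1.4, and Agpat1 in FMD by 0.85. Their medians were 1.01 in IF and 0.93 in FMD. After scaling Slc27a1 and Agpat3 were called in both groups, Acsl1 and Gpat4 in IF, and Acbd5 and Agpat1 in neither. On that scale 3.71% of all genes were called higher in IF and 5.47% in FMD.

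**Figure D3:**
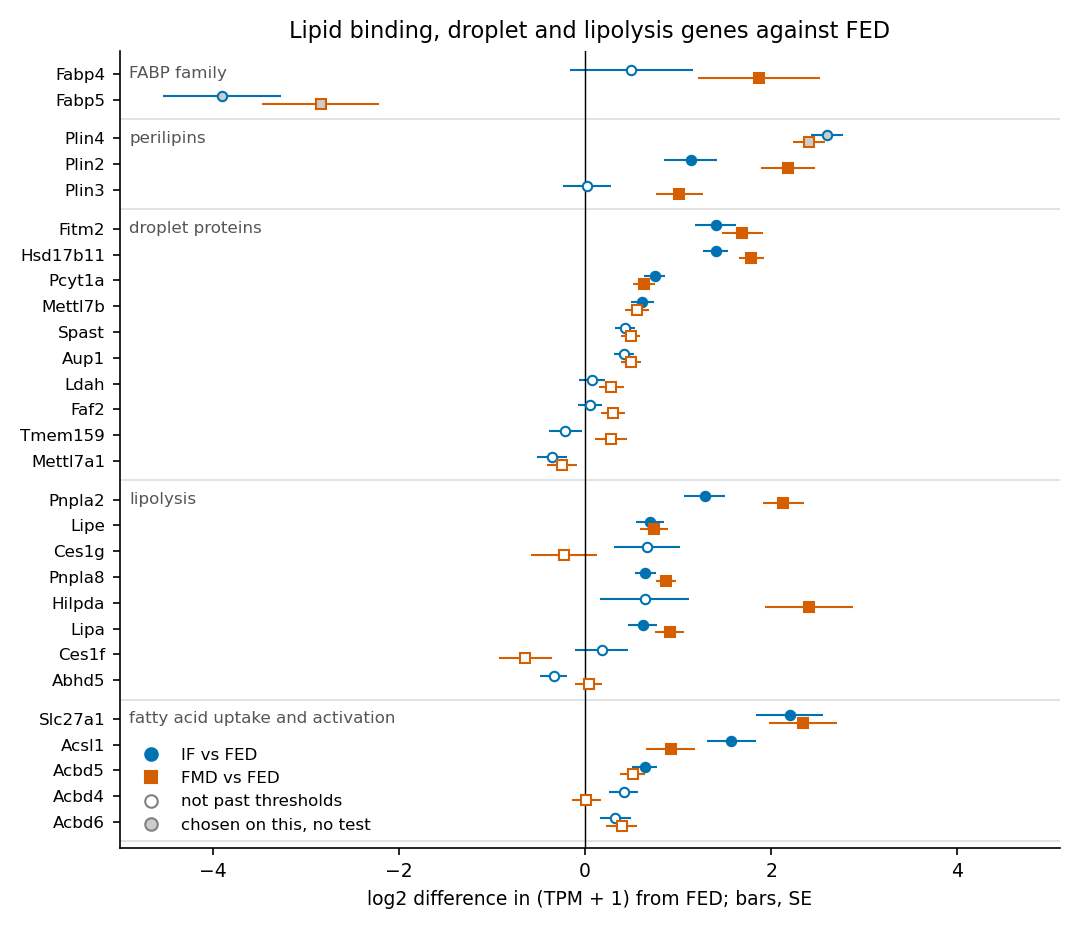
Difference from FED in log2(TPM + 1) for the tested members of 5 lists, as points with SE bars, for IF (circles) and FMD (squares), 3 mice a group. Points in full colour passed both thresholds, open points did not, and grey points are Fabp5 and Plin4, which were chosen on this difference and have no test; Fabp5 stands alone on the left at -3.90 and -2.84, while Plin4, Slc27a1, Plin2, Pnpla2 and Hilpda hold the largest FMD differences on the right.

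Plin4 is itself a target of PPARα, and 55 other genes known as such were looked for. Without Plin4, 21 were listed and tested, Plin2 and Hilpda included, and 19 were called higher in IF and 21 in FMD, where 10.3% and 35.5% of all genes were. None was called lower by limma, also at an unadjusted p under 0.05. The medians were 1.15 and 1.48 against 0.24 and 0.48 over all genes. After scaling 16 and 15 were called higher, beside 3.71% and 5.47% of all genes. Crat, the carnitine acetyltransferase, rose by 2.79 and 2.83 and Acadl, a dehydrogenase of fatty acid oxidation, by 1.34 and 1.86. Between FMD and IF 3 of the 21 were called higher (Acot2, Angptl4 and Hilpda), beside 4.67% of all genes. After scaling 1 of the 3 was still called (Acot2), where 2.17% of all genes were called in either direction. Among receptors for lipid ligands, 5 of 20 tested, Pparg rose by 1.10 and 0.85 and Rxrb by 0.81 in FMD, and after scaling only Pparg in IF was called.

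The promoter of Plin4 is shown because this gene had under 1 TPM in every FED library and over 5 TPM in every restricted one. The RefSeq promoter table on GRCm38 holds Plin4 and not Fabp5. The 229 bases before the GENCODE start of the gene, at chr17:56109804-56110032, are printed 5′ to 3′ on the minus strand, with capitals for TATAAG. This begins 32 bases before the RefSeq start and 11 bases before the GENCODE start, where the printed bases end.
Plin4 promoter: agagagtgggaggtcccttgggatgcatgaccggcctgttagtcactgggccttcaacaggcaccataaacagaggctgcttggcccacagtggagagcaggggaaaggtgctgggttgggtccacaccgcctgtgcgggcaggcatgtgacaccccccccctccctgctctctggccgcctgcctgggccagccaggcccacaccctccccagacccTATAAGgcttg
TATAAG occurred on either strand in 7.43% of the 32851 promoter windows of 300 bases. The direct repeat that PPARα binds with its partner receptor, 2 copies of AGGTCA with any 1 base between them, occurred in 0.0396% of all windows. It was not found on either strand in the window of Plin4, nor in those of Plin2, Plin3, Gk, Cpt1a, Acot2 and Pla2g12a. A single AGGTCA occurred in 16.3% of windows. It was found 1 time each in the windows of Plin2 and Cpt1a, and not in those of Plin4, Plin3, Gk, Acot2 and Pla2g12a. Only exact letters were looked for, and only in the windows of 300 bases. The search therefore cannot show whether Plin4 has a binding site elsewhere or with other letters.

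The remaining metabolic lists held genes called in either direction. Of 11 tested genes of fatty acid synthesis (23 looked for) 2 were called higher and 4 lower in IF, and 3 higher and 5 lower in FMD, beside 10.3% and 35.5% of all genes higher and 1.59% lower in each. After scaling 1 was called higher and 6 lower in IF, and 1 higher and 8 lower in FMD. Among them was Acss2, which makes acetyl-coenzyme A from acetate, at -1.26 and -1.68. Scd1, which desaturates fatty acids, fell by 5.44 in FMD and differed by 0.22 in IF (not called). Of 10 tested clock genes (21 looked for) 3 were called higher in IF, and 5 higher and 1 lower in FMD, led by Per1 at 2.08 and 2.62. After scaling 1 clock gene was called higher and 1 lower in IF, and 2 higher and 1 lower in FMD. Of 4 tested genes that depend on growth hormone and sex (41 looked for), 2 were called lower and 0 higher in IF and in FMD, also after scaling. These 2 were Selenbp2, at -5.25 and -6.05, and Lifr, at -2.22 and -2.61. Cish (0.26 in IF and 0.69 in FMD) and Socs2 (-0.34 and -0.01) were not called.

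Fabp5 and Fabp4 can be made by cells other than hepatocytes, so the markers of those cells stand beside their values. Whole liver does not show which cells their RNA came from, hepatocytes included. Fewer such cells, less RNA in each of them and less RNA in hepatocytes cannot be told apart. Of 21 macrophage markers 4 were listed (Cd68, Trem2, Mpeg1 and Cd74), with summed levels of 67.9 to 101 TPM in FED, 51.1 to 63.0 in IF and 39.8 to 143 in FMD. Mpeg1, a macrophage pore protein, fell by 1.11 in IF and 1.02 in FMD, and Cd68, a lysosomal protein of macrophages, was 64.0 TPM in FMD replicate 1 and 3.14 to 12.2 in all other libraries. The macrophage sum thus lay lower in IF without overlap and was widely spread in FMD. Of single genes 6.77% lay lower in IF without overlap, and 1.59% were called lower in each group. Cd74, a large part of the sum, overlapped between FED (34.7 to 65.9 TPM) and IF (37.3 to 46.9). Neither Cd74 (-0.27 in IF, -0.17 in FMD) nor Cd68 (-0.70 and 0.96) was called. Of 14 endothelial markers only Oit3 was listed (6.58 to 9.28 TPM in FED, 6.35 to 8.02 in IF, 8.85 to 17.2 in FMD). Of 13 adipocyte markers Fabp4 and Lipe were listed, with sums of 9.69 to 14.1, 13.0 to 40.2 and 19.3 to 88.1 TPM. Fabp4 itself made up 30.5 of the 40.2 TPM in IF replicate 1 and 80.3 of the 88.1 TPM in FMD replicate 1. The adipocyte sum is therefore not separate from the values of Fabp4. Lipe alone was 3.88 to 5.13 TPM in FED, 6.96 to 9.7 in IF and 7.8 to 9.6 in FMD, and was not called after scaling. Stellate cell and fibroblast markers (Dcn, Col1a1, Pdgfrb and Ecm1, 4 of 12) summed to 128 to 155, 206 to 257 and 176 to 337 TPM. Krt19 of the bile duct was at most 4.07 TPM, Mylpf of muscle at most 2.23 and Krt10 of epidermis at most 1.4. No marker list was at 0 in all libraries, the hepatocyte list was represented only by Ass1 (2335 to 5153 TPM), and the part of other cell types in the results was not tested.

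The genes most like each member were found by Pearson's r over the 9 libraries on scaled log2 values, among 339 genes with an SD of at least 0.5. For Fabp5 these were Oas1a (0.98), Ddost (0.95), Ppib (0.95), Atp11a (0.94) and Wfdc17 (0.94). Oas1a, an interferon-induced synthetase, was 4.22, 2.28 and 2.62 TPM in FED replicates 1, 2 and 3, 0.52 to 1.01 in IF and 0.53 to 2.45 in FMD, and so followed Fabp5 within FED and FMD as well as between groups. Ddost and Ppib, which serve glycosylation and folding in the endoplasmic reticulum, also had their lowest value in an IF library. The genes that ran most against Fabp5 were Bnip3 (-0.95), a mitophagy receptor, Eci2 (-0.94), an enzyme of fatty acid oxidation, and Pla2g12a (-0.93), a phospholipase.

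For Plin4 the most alike genes were Crat (0.98), Pla2g12a (0.98), Rab34 (0.96), Gk (0.96) and Tram2 (0.96). Crat was 6.16 to 7.23 TPM in FED, 50.9 to 53.3 in IF and 50.2 to 59.2 in FMD, and Gk, the glycerol kinase, was 19.1 to 24.6, 69.5 to 72.9 and 70.5 to 94.0 TPM. Crat and Gk stand in the list of PPARα targets and Pla2g12a is shared by the 2 members with opposite sign. Prg4 (-0.97), Psmb8 (-0.96), an immunoproteasome subunit, and Ifitm3 (-0.95), an interferon-induced membrane protein, ran most against Plin4. All of these correlations are carried mainly by the distance between FED and the 2 restricted groups, which the 9 points share with the libraries' scaling.

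**Figure D4:**
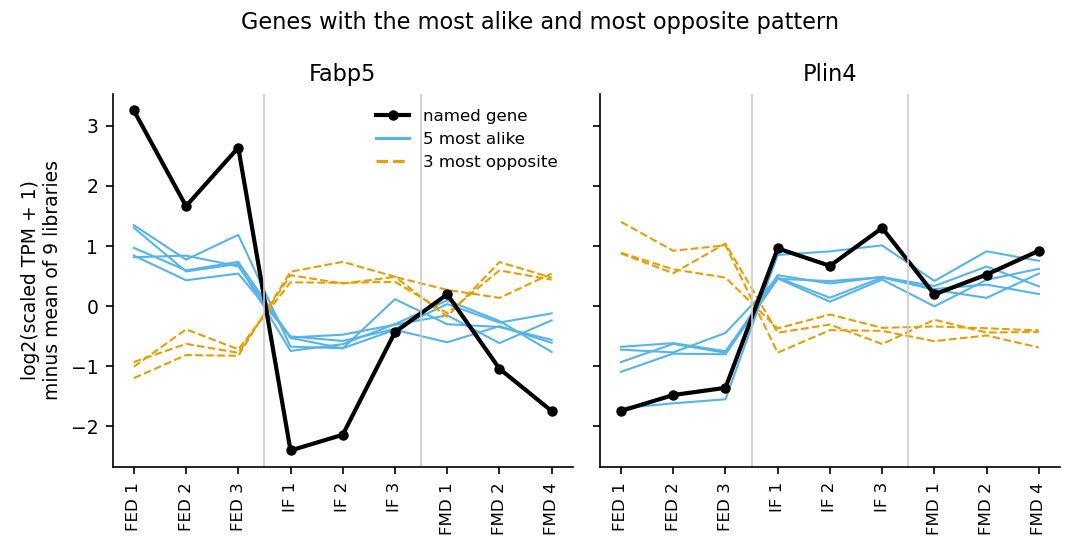
Scaled log2 level, centred on the mean of 9 libraries, of Fabp5 (left) and Plin4 (right) as black lines with points, of the 5 most alike genes in blue and of the 3 most opposite in dashed orange, by library. Fabp5 spans a wider range than any gene drawn with it, and its peak within FMD is replicate 1; Plin4 is lowest in the FED libraries together with Crat.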

How the data were processed

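Livers of 9 mice (3 FED, 3 IF and 3 FMD) were analysed by the groups of the labels. The authors deposited TPM values from stranded poly(A) libraries read on DNBSEQ. The submitters' processing notes name mm39 and DESeq2, and aligner and annotation are not given in the sources used here. No column of another series was present. The 4665 of 5608 genes whose mean reached 1 TPM were analysed as log2(TPM + 1) in limma 3.58.1 (R 4.3.3), with 1 fit of 9 libraries, an eBayes trend and Benjamini-Hochberg adjustment, after a check on simulated data; p-values measure the spread between these mice. Calls needed an adjusted p under 0.05 with a log2 difference beyond 0.585 either way. Members, gene lists and tests were chosen with earlier results of these data known. Genes named are Fabp5 and Plin4, all listed fatty acid binding proteins and perilipins, and called droplet and lipolysis genes. Also named are up to 3 genes with the smallest F-test p per other list, the 5 most and 3 least correlated genes, and defining markers. Abhd5, Mettl7a1, Acot2, Angptl4, Bhlhe40, Cpt1a and Socs2 lie outside this rule and were chosen after their values were seen. Sequences came from GENCODE and RefSeq on GRCm38, compared with BLAST 2.17.0, biopython 1.88, python 3.11.15, pandas 2.3.3 and numpy 2.4.6; figures were drawn with matplotlib 3.10.9. Alternatives covered pseudocount, filter, scaling, quantile normalization, fit per pair, trend, thresholds, a replicate block and each library left out.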

Additional observations from a re-analysis of the deposited data

Results flagged for a closer look

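Neither Fabp5 nor Plin4 differed between FMD and IF past the thresholds. In this comparison 5.14% of all genes were called as deposited and 2.17% after scaling. Among the other genes of the lists, 13 had effects against FED that differed between the diets by the test of FMD against IF itself (limma, 3 mice a group, the same libraries as above). Around the droplet these were Hilpda (higher in FMD by 1.77 on the log2 scale), Plin3 (0.99), Pnpla2 (0.85) and Agpat1 (0.59). Among PPARα targets they were Acot2 (1.81) and Angptl4 (0.76), besides Hilpda. The others were Bhlhe40 (0.94) and Per2 (0.85) of the clock, the receptor Rxrb (0.60), the desaturases Fads2 (0.77) and Scd1 (-5.66), and the cell type markers Mylpf of muscle (0.94) and Oit3 of endothelium (0.82). After scaling, Acot2, Scd1 and Mylpf were still called and the other 10 were not. Mylpf was at only 0.36 to 0.65 TPM in IF and 1.65 to 2.23 TPM in FMD, near the filter at a mean of 1 TPM. The share of all tested list genes that the 13 make up was not computed. With 3 mice a group no library was tested for standing apart within its group.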

How the results depend on the processing

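Fabp5 stayed below FED and Plin4 above FED under every alternative and with each library left out. Leaving out 1 library gave -4.49 to -3.54 and -3.49 to -2.32 for Fabp5 in IF and FMD, and 2.46 to 2.74 and 2.28 to 2.48 for Plin4. The size for Plin4 moved with the pseudocount, by construction: in IF it was 3.844 at 0.1 and 1.24 at 5, and in FMD 3.626 and 1.106, with 2.007 after quantile normalization and 2.074 after scaling. For FMD against IF, Fabp5 ranged from 0.41 to 1.65 and Plin4 from -0.34 to -0.06 with 1 library left out, never called. Labels share replicate numbers, and what the numbers stand for is not given. Deviations of the 7 pairs of same-numbered libraries from different groups correlated at 0.00348 to 0.177, with a median of 0.109. For the 20 pairs with different numbers the range was -0.202 to 0.211, with a median of -0.0588. The numbers were not taken as pairs in the main fit, and whether they pair the mice was not tested. With a replicate block, Fabp5 was called higher in FMD than in IF (1.912, adjusted p = 0.0256, limma), and Plin4 was not called, so the Fabp5 result depends on this choice.

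Counts of called genes depended on the settings. For FMD against IF the 240 genes called were 24 with 1 fit per pair of groups, 19 at an adjusted p under 0.01, 120 with no filter, 113 at pseudocount 5, 98 after quantile normalization, 101 after scaling, 772 with the replicate block, and 18 (without IF replicate 2) to 819 (without FMD replicate 4) with 1 library left out. For FMD against FED the 1732 were 3135 with no fold limit, 938 at pseudocount 5, 514 after quantile normalization and 522 after scaling. For IF against FED the 553 were 364 at an adjusted p under 0.01, 1112 with no fold limit, 316 at pseudocount 5, 326 after quantile normalization and 333 after scaling. Causes of these shifts were not tested.

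Between FMD and IF the counts per list ranged over the alternatives from 0 to 4 for lipolysis, 0 to 6 for PPARα targets and 0 to 2 for perilipins. No depth is known for these libraries, so counting error could not be given.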
